A study of Mus musculus with 2 samples.

Results

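Kruppel-like factors are transcription factors with a run of zinc fingers at one end of the protein, and they bind GC-rich and CACCC-type boxes that the SP factors bind as well. The rest of each protein differs and recruits either coactivators or corepressors, so the family holds both activators and repressors. Many of the genes are switched on quickly by outside signals, among them blood flow, glucocorticoids, thyroid hormone, transforming growth factor beta and the circadian clock. In skeletal muscle the family is best known through Klf15, which is induced by glucocorticoids and acts on amino acid and lipid use.

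The 10 genes described here are Klf2, Klf3, Klf4, Klf5, Klf6, Klf9, Klf10, Klf11, Klf13 and Klf15, out of 21853 protein-coding genes of the GENCODE vM21 annotation. Their surroundings were taken as all accessible sites whose centre lies within 50 kb of any annotated transcript start of a member. That gave 126 of 94295 sites in replicate 1 and 143 of 123291 sites in replicate 2. All 10 genes had an accessible promoter in both libraries.

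The data are DNase-seq of the gastrocnemius, the large muscle of the calf, from male B6CASTF1/J mice aged 4 days. B6CASTF1/J is a first-generation hybrid of C57BL/6J and CAST/EiJ. DNase I cuts where DNA is not wrapped in nucleosomes, and a dense run of cuts is called a peak. There is 1 group of 2 libraries, labelled as biological replicates. They come from separate tissue samples that share a donor entry, and both labels mention 3 males, so what the spread between them covers is uncertain. No gene or treatment was compared, so there is no test between groups, and every value below is a level with its spread over 2 libraries.

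Each peak carries the authors' cut density, which is comparable within a library. To set the libraries side by side, each density was turned into a rank, the percentile of the density among all peaks of that library's list. The promoter rank of a gene is the rank of its strongest peak that touches the 500 bp on either side of a protein-coding start, and 0 where there is none. Positions are in bp from the most upstream protein-coding start of the gene, with negative numbers upstream, and coordinates are on mm10. Replicate 2 had more peaks and more footprints, 335055 against 210189 in replicate 1. The labelled tissue was checked against marker genes. Of the muscle markers 6 of 6, among them Des and Myod1, had a promoter peak in both libraries, as did 4 of 6 endothelial, 3 of 4 fibroblast, 4 of 4 pericyte and smooth muscle, 3 of 4 adipocyte, 2 of 4 erythroid, 1 of 4 macrophage and 0 of 4 keratinocyte markers. Over all protein-coding genes the share was 64.1%. A promoter rank of 90 in both libraries was reached by 1 fibroblast and 1 adipocyte marker and by 0 of 6 muscle markers, against 34.4% of all genes. Whole muscle is a mixture, so fewer cells with an open site and less opening per cell cannot be told apart in any value below. The part of the other cell types in these values was not tested.

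Each of the 10 genes had a promoter peak in replicate 1 and in replicate 2, which held for 64.1% of all protein-coding genes. The promoter rank reached 90 in both libraries for 9 of the 10, against 34.4% of all genes, and Klf15 was the exception. The median promoter rank of the 10 genes was 96.5 in replicate 1 and 97.2 in replicate 2, against 74.8 and 79.8 over all genes. Most of these promoters are CpG-rich, with a ratio of observed to expected CpG between 0.71 at Klf2 and 1.03 at Klf9 and Klf15. Among the 6557 genes in the same bins of that ratio (each bin holding 10% of genes), 97.5% were open at a promoter in both, 66.4% reached a rank of 90 in both, and the median ranks were 93.9 and 95.3. Set beside genes of like CpG content, the count of open promoters among the 10 was therefore close to the background.

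**Figure D1:**
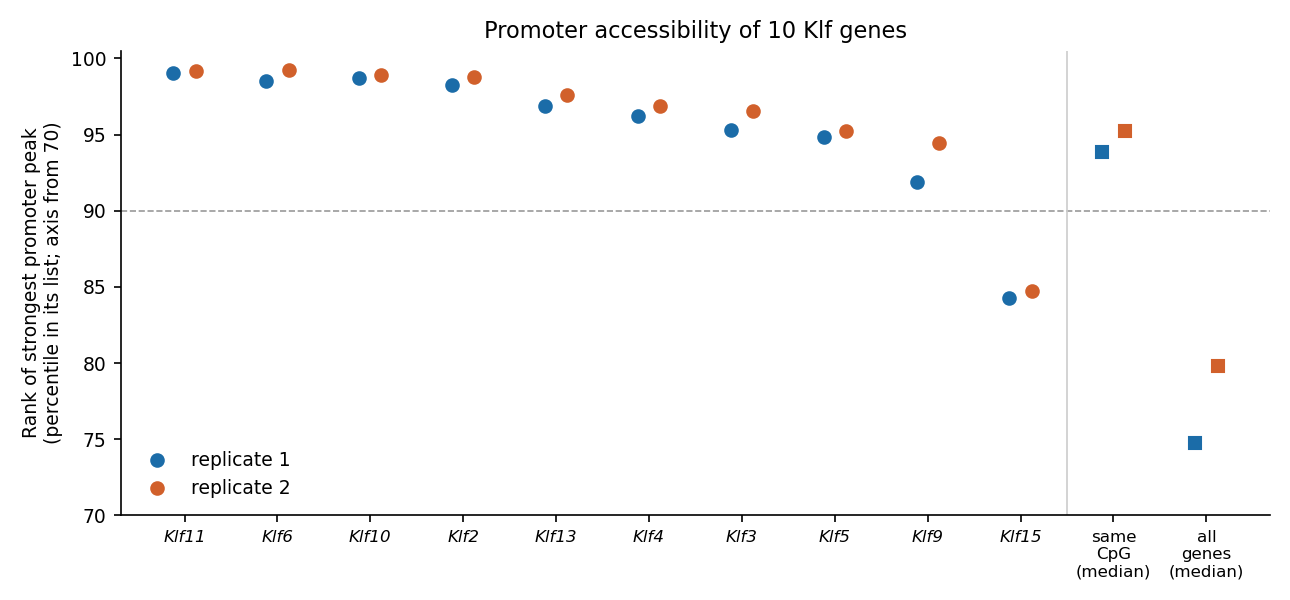
Promoter rank (percentile within the peak list, axis from 70 to 100) of each of the 10 genes in each library as circles, followed by the medians of all genes in the same CpG bins and of all genes as squares; the dashed line is at 90. Of the 10 genes only Klf15 lies below the dashed line, at 84.2 and 84.7, and still above the medians of all genes, 74.8 and 79.8.

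The order of the promoters ran from Klf11, with a mean rank of 99.1 ± 0.10 (SD, n = 2), through Klf6 at 98.9 ± 0.51, Klf10 at 98.8 ± 0.16 and Klf2 at 98.5 ± 0.33. The ranges of the libraries overlapped between neighbours within these 4 genes, while Klf11 ranked above Klf10 and Klf2 without overlap. Within each library Klf10 ranked above Klf2. However, the rank of Klf10 comes from different peaks, at 1420 in replicate 1 and at -80 in replicate 2. Its SD is therefore not the spread of a single site. The peak at -80 alone ranked 98.26 and 98.93, a mean of 98.6 ± 0.47. In replicate 1 that peak lay below the 98.27 of Klf2 and the 98.53 of Klf6. By promoter rank, Klf6 ranked above Klf11 and Klf10 in replicate 2 only, so its place among them is not resolved. Klf13 followed at 97.2 ± 0.52, Klf4 at 96.5 ± 0.46 and Klf3 at 95.9 ± 0.87. Their neighbouring ranges overlapped again, though the order was the same within each library. Klf5 at 95.0 ± 0.27, Klf9 at 93.2 ± 1.78 and Klf15 at 84.5 ± 0.33 each stood below the gene before without overlap. All 10 genes ranked higher in replicate 2 than in replicate 1, as did the median over all genes.

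The strongest shared promoter peak of all 10 genes, by its mean rank, was centred upstream of the first start, between -216 and -56. Shared peaks are pairs, 1 from each library, that have 1 bp or more in common and are each other's best match. In 8 of the 10 genes a second shared promoter peak lay less than 1000 bp downstream, centred between 394 and 750. Promoter peaks further downstream were not counted here, such as that of Klf10 at 1420, with a mean rank of 98.2, and that of Klf4 at 1070, with 71.0. Each of the 8 second peaks is weaker by definition, since the first peak was chosen as the strongest of its gene by mean rank. Their mean ranks ran from 39.1 at Klf6 to 85.5 at Klf13, apart from 98.8 at Klf11. No footprint was called in either library in 4 of the 8, those of Klf2, Klf3, Klf9 and Klf10. A footprint is a short protected stretch inside accessible DNA, such as a bound protein can leave, and a sequence is called footprinted below when it lies wholly within one. The layout was noticed in these data and was not set beside other genes.

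Klf2, at chr8:72319033-72321656 on the plus strand, is the flow-induced factor of endothelium and also acts in resting T cells. Its promoter peak had a cut density of 9.98 in replicate 1 and 6.29 in replicate 2. It lies at -93 and held 6 and 4 footprints. Printed here is the part of this peak upstream of the start, chr8:72318801-72319032 on the plus strand, because it carries footprinted GC boxes beside a MEF2 site. Capitals mark first both GC boxes, read here as GGGCGG, the reverse complement of the searched CCGCCC, and then a MEF2 site.
Klf2 promoter: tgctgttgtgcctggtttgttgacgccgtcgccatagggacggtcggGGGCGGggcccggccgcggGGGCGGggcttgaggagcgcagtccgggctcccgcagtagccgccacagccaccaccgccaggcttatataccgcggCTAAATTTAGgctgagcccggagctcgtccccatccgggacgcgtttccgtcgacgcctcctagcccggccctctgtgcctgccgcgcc
Both GC boxes lay wholly in a footprint in both libraries, and the MEF2 site at chr8:72318944-72318953 overlapped a footprint only in part in both. MEF2 factors act on this promoter downstream of the kinase encoded by Mapk7 in endothelium. A MEF2 site was in 0.16% of the 20844 shared peaks at promoters of any protein-coding gene. Klf2 also had the strongest distal peak of the 10 genes, at -23053 in intergenic sequence, with densities of 5.44 and 3.90 and a mean rank of 94.3 ± 1.66. The nearest protein-coding start of another gene was that of Gm10282, 9280 bp away. Its next peaks by rank lay at 46977 in an intron of Eps15l1, with a rank of 83.7, and at -46463, with 77.3.

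Klf4, at chr4:55527143-55532466 on the minus strand, is known from reprogramming to pluripotency and from the skin barrier. The promoter peak at -105 had densities of 7.57 and 4.67, and 5 footprints in each library. GC boxes at -108 and -196 were both footprinted in both libraries. A CACGTG E-box beside the second, at -189, lay wholly within a footprint in replicate 1 and only partly in one in replicate 2. In the gene body a peak at 2055 in a coding exon had a mean rank of 84.0. The strongest distal peak, at 17365 in intergenic sequence, had densities of 2.43 and 2.27 and a rank of 86.2 ± 5.79. It held the palindromic NRF1 site, matched on both strands as GCGCATGCG and footprinted in both libraries. The site was present at 0.25% of all shared distal peaks and footprinted at 0.10%. It is shown because it was the only NRF1 site near the 10 genes (chr4:55515101-55515129, minus strand, capitals for the match, printed as its reverse complement).
Klf4 NRF1 site: tggaaagcggCGCATGCGCgacccagtga

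Klf5, at chr14:99298691-99315036 on the plus strand, acts in gut epithelium and in smooth muscle. Its promoter peak at -116 had densities of 6.51 and 3.80 with 5 and 7 footprints, among them a CCAAT box at -84 footprinted in both libraries. Beyond the promoter little else was open. The gene had 2 shared distal peaks, at 11837 and 27514, with mean ranks of 22.9 ± 11.8 and 25.4 ± 12.2. These were the weakest of the strongest distal peaks of any of the 10 genes. Stretches with a false discovery rate below 0.05 covered 1.92% and 2.36% of its surroundings, the lowest of the 10 in both libraries, against 0.980% and 1.35% of the genome.

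Klf6, at chr13:5861482-5870394 on the plus strand, is widely expressed and responds to injury. The promoter peak at -142 had densities of 10.4 and 7.08 and 6 footprints in each library, with a GC box at -54 footprinted in both. The peaks inside the gene were far weaker, and those at 677 and 1533 differed more in rank between the libraries than any other shared peak near the 10 genes. The peak at 677 had a density of 0.42 in replicate 1 and 0.66 in replicate 2, with ranks of 16.7 and 61.6. The intronic peak at 1533 had 0.70 and 1.00, with ranks of 39.2 and 75.2. Of the 10 shared peaks near all members whose density was higher in replicate 2, 4 were at Klf6. Its strongest distal peak, at 8583 in the 3' UTR, had a rank of 66.5 ± 9.71.

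Klf3, at chr5:64803388-64832901 on the plus strand, encodes a repressor that works through the corepressor CtBP. The promoter peak at -188 had densities of 6.83 and 4.48 and 11 and 8 footprints. A second cluster of starts, at 8951 and 8996, was also open, with its strongest peak at 8892 and densities of 2.55 and 2.31. The rank there was 83.0 in replicate 1 and 90.5 in replicate 2. The protein-coding start at 23421 had no peak in either library. All 9 shared distal peaks of Klf3 lay downstream of its first start. The strongest were at 63442, with densities of 3.41 and 2.66, at 10267 in an intron, with 2.82 and 2.92, and at 36922, with 1.97 and 1.49. The nearest protein-coding start of another gene was that of Tlr1, 65931 bp or more away from each of them.

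Klf9, Klf10, Klf11 and Klf13 encode repressors that bind the corepressor SIN3A. Klf9, at chr19:23141226-23168134 on the plus strand, is induced by thyroid hormone and by glucocorticoids. Its promoter peak at -211 had densities of 4.82 and 3.45. A separate cluster of 5 shared peaks lay between -6996 and -4568, at and beside the noncoding gene 2410080I02Rik. The peak at -6256 in an intron of that gene had densities of 5.02 and 3.45 and a rank of 93.4 ± 1.49, which is not separable from the rank of the promoter, 93.2 ± 1.78. The distal peak at -5156 had 3.74 and 2.69 and a rank of 90.5. Overlapping GC boxes at -5768 and -5763, in the peak at -5716, were footprinted in both libraries.

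Klf10, at chr15:38291463-38300706 on the minus strand, was first described as an early gene of transforming growth factor beta and is also driven by the clock. It was the only one of the 10 with 3 promoter peaks above a rank of 90 in both libraries. The peak at -80 had densities of 9.96 and 6.56, the peak at 1420 had 10.7 and 5.26, and the peak at -360 had 7.82 and 5.50. In replicate 1 the peak at 1420, near the gene's other starts, was the strongest, and in replicate 2 the peak at -80 was. The peak at -360 is printed in full (chr15:38300941-38301200, minus strand) because a CACCC-type box and a CACGTG E-box adjoin in it. Capitals mark this pair and, further on, a GC box, all wholly within footprints in both libraries.
Klf10 upstream promoter peak: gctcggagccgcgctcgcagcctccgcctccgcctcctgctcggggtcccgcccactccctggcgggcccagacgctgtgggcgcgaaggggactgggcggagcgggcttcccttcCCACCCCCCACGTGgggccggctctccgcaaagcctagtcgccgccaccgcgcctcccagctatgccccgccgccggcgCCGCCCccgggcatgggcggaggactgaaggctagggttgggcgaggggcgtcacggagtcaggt
The E-box lies at chr15:38301071-38301076 and the box beside it at chr15:38301077-38301084. This E-box was the only CACGTG of 8 near the 10 genes to be footprinted in both libraries. Of the 33 shared peaks at any promoter near the 10 genes, 12.1% held a CACGTG, against 6.90% of all. It was footprinted in 3.03%, against 1.25% of all. In distal peaks CACGTG was in 6.56% against 3.99%, and footprinted in 0% against 0.31%. Downstream of the gene a distal peak at 16655 had densities of 3.96 and 2.89 and a rank of 91.2 ± 2.25. Closer by, peaks at -1190 and -1750 had ranks of 86.4 and 85.8.

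Klf11, at chr12:24651274-24662789 on the plus strand, is a close relative of Klf10 and is likewise induced by transforming growth factor beta. Both of its promoter peaks were among the strongest of the libraries. The peak at -59 had densities of 11.5 and 6.97, and the peak at 536, just before a second start at 622, had 10.6 and 6.67, with a rank of 98.8 ± 0.27. The first held a CCAAT box at -14 that was footprinted in both libraries. The second held a cyclic AMP response element, TGACGTCA, a GC box and a CACCC-type box, all footprinted in both. The cyclic AMP response element (chr12:24651772-24651799, plus strand, capitals for the match) is printed because it was the only one found near the 10 genes. It was present at 2.34% of all shared promoter peaks and footprinted at 1.59%.
Klf11 cyclic AMP response element: tttccagccaTGACGTCAcccgaatcca

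Klf13, at chr7:63886351-63938915 on the minus strand, acts in heart development and in lymphocytes. Its promoter peak at -216 had densities of 8.18 and 5.18. The gene was open at several more places, with peaks at the starts at 2614 and 14045 that ranked 84.8 and 77.4. An intronic peak at 1099 had 5.34 and 2.93 and a rank of 92.9 ± 0.025, the highest mean rank of the distal peaks inside a member. At 41889, in the same gene, a peak next to the start of a noncoding transcript had 3.21 and 2.74 and a rank of 89.5 ± 3.92. This peak held the only glucocorticoid response element found near the 10 genes, not wholly within a footprint in either library.

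Klf15, at chr6:90462576-90475238 on the plus strand, departed from the other 9 in its promoter. The promoter peak at -56 had densities of 2.73 in replicate 1 and 1.55 in replicate 2, the lowest of the 10 genes in both libraries. An intronic peak at 1079 was stronger, with 4.05 and 2.61 and a rank of 90.8 ± 1.31, and held a GC box footprinted in both libraries. With promoters widened to 1000 bp this intronic peak took the place of the promoter peak, and the promoter rank of Klf15 became 90.8 in place of 84.5. The starts at 2728 and 4542 had no peak in either library, and the start at 3824 had a peak in replicate 2 only. A CACGTG E-box at -1 spans the first start (chr6:90462563-90462588, plus strand, capitals for the match) and was footprinted in replicate 1 only.
Klf15 start E-box: cccgcggcgtCACGTGagcggccgga

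While its promoter was the weakest, Klf15 had the most distal peaks. A distal peak is centred more than 1000 bp from every annotated transcript start. Klf15 had 12 shared ones, 6 upstream and 6 downstream, and was the only one of the 10 genes to reach 10. That count is reached by 4.89% of all genes and by 7.29% of the genes in the CpG bins of the 10. Of the 12, those at -46841, -39901, -30906 and -27226 lay nearer to a start of Cfap100 than to one of Klf15. Those at 46689 and 52644 lay nearer to a start of Aldh1l1. By mean rank the first were at -12196 in intergenic sequence, with densities of 3.72 and 2.73 and a rank of 90.5 ± 2.40, and at 52644 in an intron of Aldh1l1, with 4.19 and 2.38 and also 90.5. Their order is not resolved, since the second was the stronger in replicate 1 and the first in replicate 2. The peak at -12196 held an MCAT element, GGAATG, the site of TEAD factors, which was the only one of those near the 10 genes to be footprinted in both libraries. An MCAT element was in 9 of the 61 distal peaks near the 10 genes, or 14.8%, against 13.8% of all distal peaks. It was footprinted in 1.64%, against 0.49% of all. The third distal peak of Klf15 by mean rank, at -27226, had densities of 2.76 and 1.80. The nearest other protein-coding start was that of Aldh1l1 for the peak at 52644, 35569 bp away. It was that of Cfap100 for the peaks at -12196 and -27226, 21583 and 6553 bp away. The count of 12 fell below 10 with the shorter peak lists, with a window of 25 kb, and where shared peaks had to overlap by 50% of each.

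**Figure D2:**
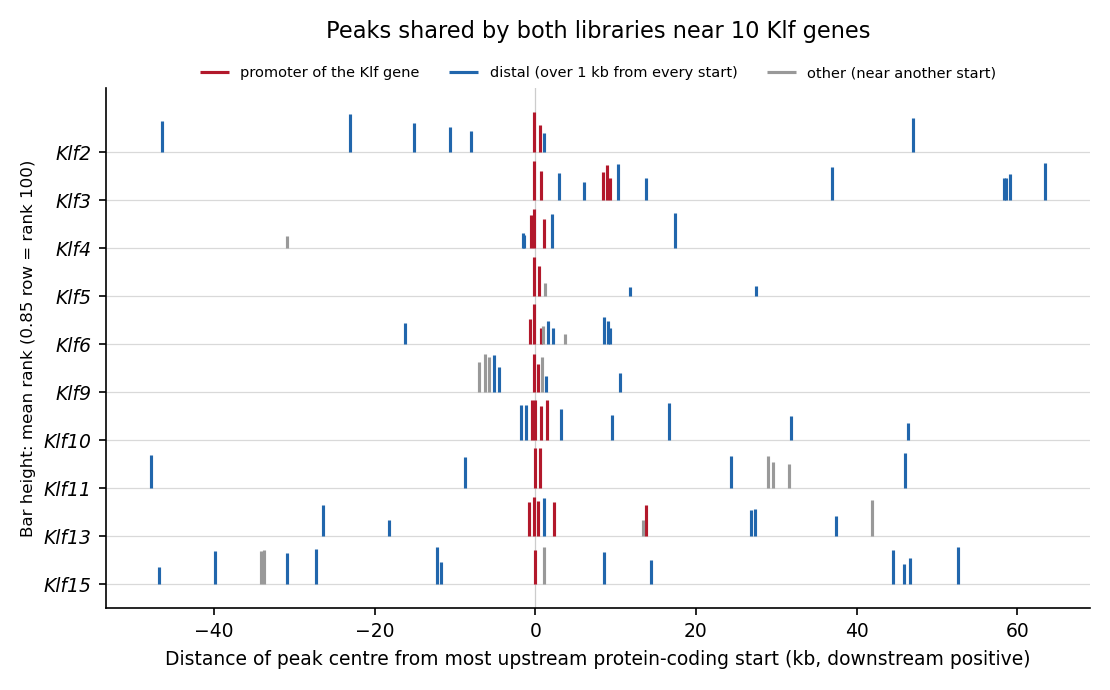
Each shared peak near the 10 genes as a vertical bar, placed by the distance of its centre from the gene's most upstream protein-coding start (kb, downstream positive), with the height giving its mean rank and the colour its class. The tallest bars stand at 0 in all rows but those of Klf9 and Klf15, and Klf3 has no distal peak upstream of its start.

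Near the 10 genes, 85.7% of the peaks of replicate 1 and 76.2% of those of replicate 2 had 1 bp or more in common with any peak of the other library, against 79.6% and 60.8% of all peaks. Best matches both ways, the shared peaks, numbered 106. Of the 106, 29 lay in promoters of the members and 4 in promoters of Cys1 and Cfap100. Of the rest, 26 lay in introns, 6 in coding exons, 1 in a 3' UTR and 34 in intergenic sequence, with 3 in introns of noncoding genes and 3 in exons of noncoding transcripts. There were 61 distal peaks, 22 upstream and 39 downstream, with a median of 6 per gene against 2 over all genes. All but Klf5 had more than the median of all genes. The surroundings of the 10 genes hold few other genes, with a median of 0 other protein-coding genes against 2, and none held more than 1. Over the 9176 genes with at most 1 other gene in the window, the median was also 2 distal peaks. The median mean rank of the 61 distal peaks was 64.1, against 56.1 over all 45194 shared distal peaks. Of the 61, 13 ranked at or above 84.3, the 90th percentile of all distal peaks.

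**Figure D3:**
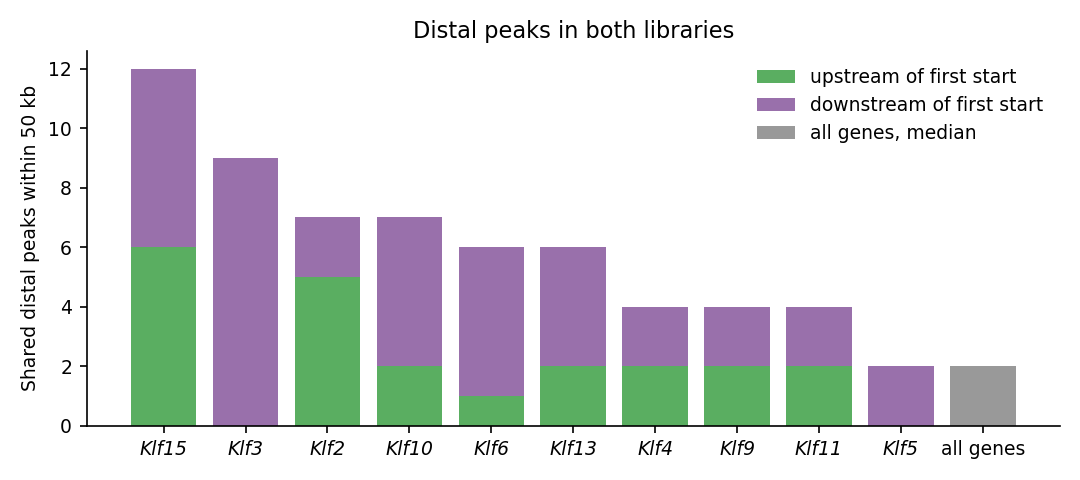
Number of shared distal peaks within 50 kb of the starts of each of the 10 genes, split by side of the most upstream protein-coding start, with the median of all genes at the right. Klf15 leads with 12, Klf3 has 9 on one side only, and Klf5 has 2, the same as the median of all genes.

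Sequence motifs were searched on both strands in the 200 bp about the centre of each shared peak, and a motif counted as footprinted when it lay wholly within a footprint in both libraries. A match is a description of the sequence, and no factor was measured. There were 38 footprinted matches near the 10 genes, 17 of them GC boxes and 2 of them the NRF1 palindrome near Klf4, counted on each strand. The 33 promoter peaks near the 10 genes are 29 of the members and 4 of Cys1 and Cfap100. At least 1 GC box was in 22 of the 33, which is 66.7%, against 58.2% of all shared promoter peaks. It was footprinted in 27.3% against 24.1%. The CACCC-type box, searched as CCACNCCC, was in 18.2% of the promoter peaks near the 10 genes against 16.6% of all. It was footprinted in 3 of the 33, or 9.09%, against 4.66% of all. GC and CACCC-type boxes are bound by SP factors as well as by this family. The 3 footprinted CACCC-type boxes are printed because they have the letters that KLF proteins bind, at promoters of the family itself. They lie at Klf10 (chr15:38301067-38301094), Klf11 (chr12:24651865-24651892) and Klf13 (chr7:63939059-63939086), each on the minus strand, with the match in capitals.
Klf10 box: gcttcccttcCCACCCCCcacgtggggc
Klf11 box: ctagctttggCCACGCCCccatgctgcg
Klf13 box: ctaccactggCCACGCCCctcctgaggc
All 3 belong to genes of the SIN3A-binding repressors, a grouping seen after the matches were known. The boxes of Klf11 and Klf13 share the letters CCACGCCC, and that of Klf10 differs.

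The myogenic E-box CAGCTG, which MyoD and its relatives bind, was in 22 of the 61 distal peaks, or 36.1%, against 29.9% of all distal peaks. It was footprinted in 4, or 6.56%, against 2.66% of all. In promoter peaks it was in 2 of 33, or 6.06%, against 13.9% of all. The 4 footprinted E-boxes are shown because they have the letters that the muscle factors bind. They lie in intergenic sequence near Klf3, at 36867 (chr5:64840243-64840268, plus strand), near Klf4, at -1350 (chr4:55533803-55533828, minus strand), and near Klf10, at 9580 (chr15:38291113-38291138, minus strand) and 31865 (chr15:38268828-38268853, minus strand).
Klf3 E-box: tggtgcactgCAGCTGctggggtatc
Klf4 E-box: tccccgccctCAGCTGtctccgccag
Klf10 near E-box: agccccccgcCAGCTGgactggagcc
Klf10 far E-box: tgacctctgaCAGCTGgcagccatcg
The peak at Klf3 was the strongest of the 4, with a mean rank of 80.9, and that at Klf4 the weakest, with 32.3.

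The CTCF site, bound by the factor that anchors chromatin loops, was in 7 of the 61 distal peaks and in none of the 33 promoter peaks. That was 11.5% of distal peaks, against 9.93% of all, and 0% of promoter peaks, against 1.93% of all. All 7 were footprinted in both libraries, so 11.5% of these distal peaks held a footprinted site, against 7.39% of all. The sequences are given on the strand of the match, with 8 bases on either side, because every match to this motif near the 10 genes was footprinted. Of the peaks near Klf3, the sites lie in the intronic peak (chr5:64813660-64813687, minus strand) and in the far downstream peak (chr5:64866812-64866839, minus strand).
Klf3 intronic CTCF site: aaagagaaCCAGTAGGTGGCgcacgaaa
Klf3 downstream CTCF site: ctgggtctCCAGCAGAGGGCacccatga
Near Klf15, they lie in an intron of Cfap100 (chr6:90422685-90422712, minus strand) and in an intron of Aldh1l1 (chr6:90515224-90515251, minus strand).
Klf15 upstream CTCF site: tctcttggCCACCAGTGGGCgctcatgc
Klf15 downstream CTCF site: agaactgaCCAGCAGGGGGCagcatggt
The others lie in coding exons of Klf4 (chr4:55530442-55530469, minus strand) and Klf10 (chr15:38297440-38297467, plus strand) and in an intron of Cys1 near Klf11 (chr12:24675550-24675577, plus strand).
Klf4 exonic CTCF site: agcctcagCCGCCAGGTGGCgggctgat
Klf10 exonic CTCF site: tgaagtggCCAGTAGATGGCgctgatgc
Klf11 CTCF site: actcttcaCCACCAGAGGGCactgttct
The peaks that hold them ranked between 76.5 and 90.5, and 2 of the 3 strongest distal peaks of Klf3 were among them.

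The libraries differed in scale. The median ratio of density, replicate 1 over replicate 2, was 1.38 over the 106 shared peaks and 1.41 over all 73156. The median over a gene's shared peaks ran from 1.10 at Klf4 to 1.59 at Klf2. At the strongest promoter peaks of the 10 genes it was 1.58, and at the other 96 shared peaks 1.35. The density was lower in replicate 1 at 10 of the 106, or 9.43%, against 8.10% of all shared peaks. Of the peaks found in only 1 library, 18 in replicate 1 and 34 in replicate 2, none ranked above 81.2, and the medians were 30.4 and 43.5. Footprints numbered 282 in replicate 1 and 412 in replicate 2 near the 10 genes, or 1.06 and 1.30 per 100 bp of peak, against 1.04 and 1.15 in all peaks.

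**Figure D4:**
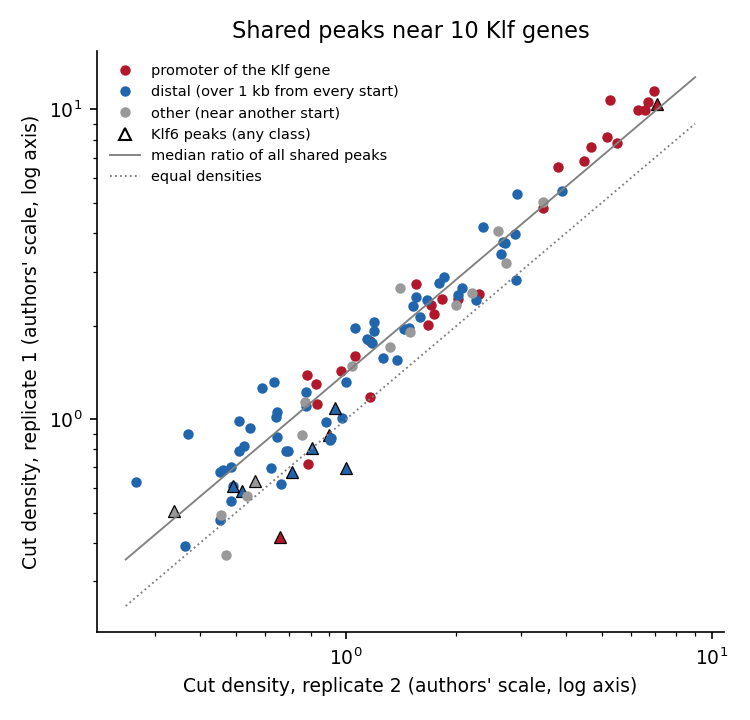
Cut density of each of the 106 shared peaks in replicate 1 against replicate 2, on the authors' scale and log axes, coloured by class, with the peaks of Klf6 as triangles. The solid line is the median ratio of all shared peaks, 1.41, and the dotted line equal densities; of the 10 peaks under the dotted line, 4 are triangles.

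Counts for related genes are given for comparison, with no test of a difference. A promoter peak in both libraries was found for 64.1% of all genes and for 97.5% of genes in the CpG bins of the 10. Among the 7 other KLF genes, a promoter peak was shared by both libraries at 5, led by Klf16 with a mean rank of 98.1 ± 0.55 and Klf7 with 97.0 ± 0.31. Klf1, the erythroid factor, and Klf17 had none in either library. Of 9 SP genes, 6 had one in both, led by Sp3 at 98.5 ± 0.30 and Sp2 at 98.3 ± 1.23, and Sp7, the osteoblast factor, had none. The cofactors and regulators of KLF proteins were open in 13 of 13. The highest were Wwp1, a ubiquitin ligase, at 99.3 ± 0.13 and Sap30, a subunit of the SIN3 complex, at 99.0 ± 0.35. The genes of the signals that induce the family were open in 15 of 15. The highest were Tgfbr1, a receptor of transforming growth factor beta, at 99.7 ± 0.01 and Mapk7 at 98.9 ± 0.21. Of 11 reported target genes, 10 were open in both, led by Fkbp5 at 98.7 ± 0.27 and Per1 at 98.2 ± 0.63, both of which are also glucocorticoid targets. The median mean rank was 96.9 over the 10 genes, 85.9 over the other KLF genes, 76.3 over the SP genes, 97.7 over the cofactors, 95.9 over the signal genes and 82.5 over the targets. All 10 genes were taken for this description with earlier results in view, so their place above the other KLF genes is not a finding.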

How the data were processed

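Per the labels and the file listings, the deposited lists were made by the authors for each library by itself on mm10; no source used here names the aligner or the peak caller. The authors' peak lists give a cut density (signal) per peak. Below 1 its values are whole multiples of 0.00675 in replicate 1 and 0.00333 in replicate 2, so depth in reads is unknown and no interval on a count is given. The longer of each library's peak lists was used. The deposited false discovery rate values (q-values) reach 0.05. Each deposited footprint carries the constant score 0.01, whose meaning is not given, so footprints were not ranked.

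Ranks, shared peaks, distances and motif matches were computed with Python 3.11.15, numpy 2.4.6, pandas 2.3.3 and pysam 0.24.0, and the steps were tested on simulated intervals. Motifs and printed sequences come from the C57BL/6J reference, GRCm38.p6 (the build mm10), though the mice also carry a CAST/EiJ genome copy, whose differences were not used here. Starts come from GENCODE vM21. The genes and lists were chosen with earlier results of these data known. Named were the 10 genes, their promoter peaks and 3 strongest shared distal peaks each with the nearest other gene, and in each list the 2 highest genes and up to 2 without a peak. Further peaks and motif matches were singled out after their values were seen.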

Additional observations from a re-analysis of the deposited data

How the results depend on the processing

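Of 65 alternatives to the values that describe all 10 genes, 56 left the value within its spread or within 1.5 times of a count, and 9 moved it. For the density ratio that spread was the SD of the median ratios of the 10 genes, 0.165, and not an SD over libraries. With the shorter peak lists the median promoter rank was 94.7 in place of 96.9, the shared distal peaks numbered 33 in place of 61, and 0 genes in place of 1 had at least 10. The strongest 50% of peaks left 38 shared distal peaks, and a distance of over 2.5 kb from every start left 40. The number of genes with at least 10 was 0 with a window of 25 kb, 4 with 100 kb, and 0 with an overlap of 50% of each peak, which also put the share of peaks overlapping the other library at 67.2% in place of 81.0%. Of 70 alternatives for the promoter rank of single genes, 17 moved it by more than its spread. Leaving out 1 library cannot move a rank by more than the SD of the 2 libraries. Such alternatives, here and for the median promoter rank, were therefore bound to count as unmoved. With the shorter lists Klf9 was at 88.3 and Klf15 at 73.6, and 8 genes in place of 9 reached a rank of 90. A rank is a percentile within its list, so a list with fewer weak peaks gives the same peak a lower rank. Ranks of all genes on the shorter lists were not computed. Leaving out 1 library gave a median promoter rank of 96.5 to 97.2, 126 to 143 peaks near the genes and 282 to 412 footprints, with 10 promoter peaks and 9 ranks of at least 90 each time. No paired analysis was possible because there is 1 group. An SD over 2 libraries is itself imprecise, and the depth behind the footprint calls is unknown.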
